A study of Homo sapiens with 6 samples.

Results

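The 4 HEK293 libraries that had received an siRNA against a circular RNA, 2 with siRAB3IP and 2 with siCAMSAP1, were set together against the 2 libraries with control siRNA, which makes up all 6 libraries of the series. Each siRNA carried the same weight in the average, so the average effect is the mean of the 2 siRNAs' own effects. HEK293 is a human embryonic kidney cell line. The targets named by the labels are the circular RNAs circRAB3IP and circCAMSAP1, and the control is labelled NTC (no template control). Cells of all 3 groups were transfected with Lipofectamine RNAiMAX and lysed 48 hours later, so the reagent and the transfection were common to the groups and no untransfected cells entered the comparison. One siRNA per target and 1 cell line were used. Libraries were assigned by the names that the authors' deposited tables give to the count columns, because the titles of the sample records name another group for 4 of the 6 libraries. In the 4 records of knock-downs, the genotype field gives the circular RNA that the title does not. The labels do not state whether a group's libraries are separate cultures. The p-values therefore reflect the spread among these 6 libraries alone, and that spread may be technical.

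Circular RNAs arise when a downstream splice site is joined back to an upstream one, and an siRNA across that junction spares the linear mRNA of the host gene in principle. siRNAs act through Argonaute proteins, can repress other mRNAs that match their seed, and as double-stranded RNA can meet cytosolic sensors that signal to interferon and NF-kB genes. A response seen with 2 siRNAs of different sequence and target is commonly separated from one seen with a single siRNA, and genes pushed in opposite ways cancel in the average. NF-kB is a family of dimeric transcription factors held in the cytosol by inhibitor proteins, and many of its targets encode its own subunits, its inhibitors, chemokines and adhesion molecules.

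The libraries held 37379217 to 39637733 fragments assigned to genes, and 3 counts stood for 0.0757 to 0.0803 CPM, which are counts scaled to a common library size. The 10 most abundant genes took 12.98% to 14.89% of a library. By chi-square per degree of freedom over genes, control 1 differed less from siCAMSAP1 library 1 (15.7) than from control 2 (20.9). The linear mRNA of RAB3IP was at 57.5 and 62.5 CPM in the controls, 68.1 and 66.7 with siRAB3IP and 56.3 and 61.6 with siCAMSAP1, and that of CAMSAP1 at 138 and 136, 156 and 150, and 139 and 138 CPM. Neither host gene was called in the average effect (log2 fold change 0.07, adjusted p = 0.657, and 0.09, adjusted p = 0.493). Circular RNAs are not separated from linear ones in counts per gene, so these values do not check the knock-downs. The epithelial keratins KRT8 and KRT18 lay at 511 to 927 and 233 to 453 CPM and vimentin (VIM) at 173 to 326 CPM, whereas NEFM, PAX2 and PAX8, which are often named for HEK293, stayed at or under 0.923 CPM (these marker levels use the raw library total, without TMM scaling). The blood marker PTPRC had at most 3 counts, PECAM1 had none, and DCN, CD3E, TTR and MYH7 had at most 2, while COL1A1, COL3A1, DES and GFAP were read at 1.15 to 11.4 CPM.

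In the average of both siRNAs, 7 of 14 NF-kB subunits and inhibitors and 11 of 16 genes of antigen presentation by MHC class I were higher than in the controls and none lower. Higher calls in these 2 lists numbered 8 and 10 with siRAB3IP on its own and 5 and 7 with siCAMSAP1. Fewer members of both lists were called in the average without control 2. Lower calls were fewer: 4 of 18 Wnt genes, 6 of 22 p53 targets (3 others were higher) and 6 of 19 BMP and ID genes (1 other was higher), of which 2, 1 and 1 were left without control 2. With siCAMSAP1 on its own, none of the 18 Wnt genes, 4 of the 22 p53 targets and 3 of the 19 BMP and ID genes were called lower. With siRAB3IP these counts were 6, 4 and 4. Of 22331 genes tested, 949 (4.25%) were called in the average effect by edgeR's quasi-likelihood test at a Benjamini-Hochberg adjusted p under 0.05, 529 higher (2.37%) and 420 lower (1.88%). With upper-quartile scaling the split was 455 higher and 555 lower, and that scaling moved the median of all genes from -0.01 to -0.04 on the log2 scale. Changes were mostly small, as 288 of the 949 passed 1.5-fold and 95 passed 2-fold, 63 of them higher and 32 lower. In 834 of the 949 (87.9%) all 4 siRNA libraries lay on the same side of both controls. The siRNA libraries lay above both controls in 10.5% and below both in 10.6% of all genes tested.

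The average leaned on siRAB3IP. On their own, siRAB3IP differed from the controls in 2671 genes (12%) and siCAMSAP1 in 237 (1.06%), against the same 2 control libraries. Of the 949 genes, 920 had own effects of one sign, yet 755 were called in siRAB3IP only, 46 in siCAMSAP1 only, 115 in each and 33 in neither. The siRNAs differed from each other in 2076 genes (9.3%), among them 375 of the 949 (39.5%), and the siRAB3IP effect was the larger in 787. Treated as 1 group of 4, so that the difference between siRNAs counts as spread, the siRNA libraries differed from the controls in 23 genes, 19 higher and 4 lower, with 2284 genes at an unadjusted p under 0.05.

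Single libraries moved these counts. Without control 2 the average effect called 374 genes and without siRAB3IP library 1 it called 597. The siRAB3IP count fell to 1680 without control 2 and to 1307 and 1160 without siRAB3IP libraries 1 and 2. The siCAMSAP1 count was 425 and 135 without controls 1 and 2 and 127 and 86 without siCAMSAP1 libraries 1 and 2. Grouped by the titles of the sample records, edgeR called 0 genes in the average effect (359 at an unadjusted p under 0.05) and DESeq2 called 0 (210 at an unadjusted p under 0.05), so all that follows rests on the names in the authors' tables.

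**Figure D1:**
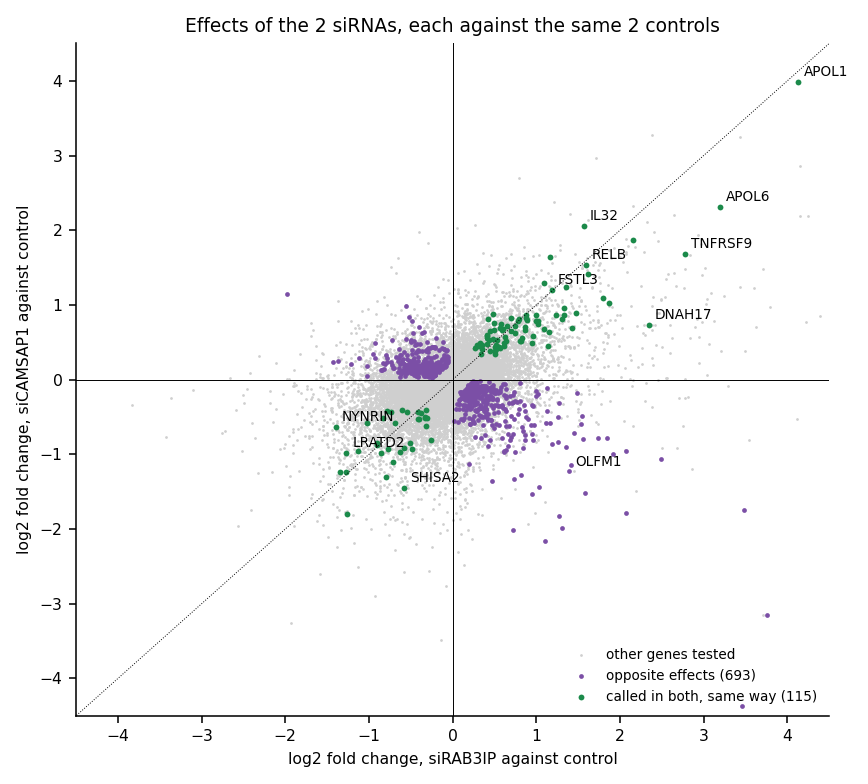
Log2 fold change of every gene tested with siCAMSAP1 (vertical axis) against that with siRAB3IP (horizontal axis), both against the same 2 control libraries; 8 genes lie outside the axes. The 115 genes called in each siRNA with one sign (green) and the 693 genes with opposite effects (purple) are marked, and the dotted line stands for equal effects.

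Genes called in each siRNA on its own and with one sign numbered 115 (0.515% of those tested), 81 higher (0.363%) and 34 lower (0.152%). Both comparisons use the same 2 control libraries, so the count defines the set and is no support for it. In 95 of the 115 the siRNAs did not differ from each other at the threshold, and in 20 they did. Without control 1 the count was 232, without control 2 it was 65, and without siCAMSAP1 libraries 1 and 2 it was 71 and 53. The authors' deposited tables list 2192 genes for siRAB3IP and 474 for siCAMSAP1, with 241 in both, which are 11% and 50.8% of the tables. Of those 241, 149 are listed as higher in both, 66 as lower in both and 26 as opposite, and 93 of the 115 genes are among them.

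The 12 largest shared rises, ranked where the 6 libraries averaged 5 CPM or more, included RELB, NFKBIA and NFKB2 of the NF-kB system and its targets IL32 and ICAM1. TNFRSF9, the T cell costimulatory receptor 4-1BB (chr1:7979907-8000926, minus strand, in the hg19 coordinates of the count file), stood at 2.01 and 1.65 CPM in the controls, 12.8 and 12.2 with siRAB3IP and 5.64 and 6.04 with siCAMSAP1. IL32, a proinflammatory cytokine (chr16:3115298-3131908), stood at 16.2 and 14.3, 45.4 and 44.6, and 62.9 and 63.6 CPM. In both genes all 4 siRNA libraries lay above both controls, as the rule that chose them required, and the siRNAs ranked in opposite order. The average log2 fold change was 2.23 for TNFRSF9 (SE 0.15, adjusted p = 1.16e-05) and 1.81 for IL32 (SE 0.08, adjusted p = 1.26e-07), and the difference between siRNAs was called in both, at 1.10 (adjusted p = 0.000476) and -0.49 (adjusted p = 0.00303). RELB, the subunit of the non-canonical NF-kB dimer, read 5.46 and 3.94 CPM in the controls against 15.7, 12.5, 13.4 and 13.9 CPM. Its rise was of like size with each siRNA, 1.59 and 1.54 on the log2 scale, with a difference of 0.05 (SE 0.15, adjusted p = 0.887).

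The adhesion molecule ICAM1 rose from 4.57 and 3.58 CPM to 9.2 and 8.15 with siRAB3IP and 9.67 and 10.3 with siCAMSAP1 (average log2 fold change 1.19, SE 0.14). NFKBIA, the inhibitor IkB-alpha, went from 41.3 and 37.9 CPM to 91.1, 66.9, 72.1 and 72.1 (0.93, SE 0.11), and NFKB2, which encodes p100 and its product p52, from 23.6 and 20.6 CPM to 45.8, 35.4, 40.0 and 38.4 (0.85, SE 0.10). In each of these 3 genes the lowest siRNA library was above the higher control, as the rule that chose the 12 genes required. FSTL3, a secreted binder of activin, went from 9.1 and 8.11 CPM to 20.1, 18.9, 18.0 and 21.5 (1.19, SE 0.11), the cytokine receptor IL31RA from 4.39 and 5.32 to 12.8, 11.6, 8.84 and 10.2 (1.15, SE 0.13), and IFIT3, an interferon-induced protein, from 3.18 and 3.29 to 5.39, 7.56, 5.34 and 6.12 (0.91, SE 0.17). The sodium-proton exchanger gene SLC9A2 (1.18), SHISAL1 (1.05) and the divergent transcript FAM111A-DT (0.87) complete the 12. FAM111A-DT overlaps FAM111A and its reads may be shared with it, as the counting did not use strand. Adjusted p in edgeR was at most 0.00902 over the 12, and none lost its call when 1 library was left out.

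Promoters of shared rises are shown because members of one pathway moved together and the files hold no other readout of these genes. The sequences run 5′ to 3′ on the gene's strand from 250 bases before to 50 after the start, from RefSeq on GRCh38.p14, and capitals mark matches on either strand to 2 forms of the kB motif. The long form is GGGA, any 2 bases and TTCC, and the short form is GGAANTTCC, with any base at N. The forms can overlap each other and their own reverse strand. The windows shown were picked because they hold a match, and the other starts of IL32, NFKB2 and TAP1 hold none. TAP1 is not among the 12 named shared rises. TAPBP, TAP2 and ERAP1 hold no match, and TNIP1 holds a match that is not shown. Positions are TNFRSF9 chr1:7940790-7941089 (minus), IL32 chr16:3065153-3065452 (plus, the first of 2 starts), ICAM1 chr19:10270870-10271169 (plus), NFKBIA chr14:35404700-35404999 (minus), NFKB2 chr10:102395455-102395754 (plus, the third of 3 starts) and TAP1 chr6:32853655-32853954 (minus, the first of 2 starts).
TNFRSF9: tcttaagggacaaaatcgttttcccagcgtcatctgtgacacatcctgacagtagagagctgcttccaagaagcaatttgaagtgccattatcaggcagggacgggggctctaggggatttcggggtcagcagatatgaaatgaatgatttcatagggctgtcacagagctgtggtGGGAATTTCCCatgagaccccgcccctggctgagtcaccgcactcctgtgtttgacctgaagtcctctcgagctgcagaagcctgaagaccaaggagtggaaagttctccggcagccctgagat
IL32: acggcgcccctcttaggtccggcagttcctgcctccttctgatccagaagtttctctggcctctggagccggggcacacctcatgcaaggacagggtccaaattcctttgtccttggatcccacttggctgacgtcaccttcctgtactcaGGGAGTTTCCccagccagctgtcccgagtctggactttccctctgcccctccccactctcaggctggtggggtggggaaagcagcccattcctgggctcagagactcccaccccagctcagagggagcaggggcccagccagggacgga
ICAM1: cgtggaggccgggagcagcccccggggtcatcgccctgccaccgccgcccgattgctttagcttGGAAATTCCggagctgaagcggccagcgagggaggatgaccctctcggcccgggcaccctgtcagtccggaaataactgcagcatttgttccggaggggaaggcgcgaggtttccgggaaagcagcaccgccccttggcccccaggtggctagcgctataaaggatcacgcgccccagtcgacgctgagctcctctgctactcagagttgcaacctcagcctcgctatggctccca
NFKBIA: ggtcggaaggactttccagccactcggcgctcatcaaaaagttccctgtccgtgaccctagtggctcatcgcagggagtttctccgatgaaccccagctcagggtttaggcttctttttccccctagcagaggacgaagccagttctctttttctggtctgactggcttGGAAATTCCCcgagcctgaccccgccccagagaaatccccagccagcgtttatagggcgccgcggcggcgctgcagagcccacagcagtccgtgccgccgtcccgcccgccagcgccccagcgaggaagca
NFKB2: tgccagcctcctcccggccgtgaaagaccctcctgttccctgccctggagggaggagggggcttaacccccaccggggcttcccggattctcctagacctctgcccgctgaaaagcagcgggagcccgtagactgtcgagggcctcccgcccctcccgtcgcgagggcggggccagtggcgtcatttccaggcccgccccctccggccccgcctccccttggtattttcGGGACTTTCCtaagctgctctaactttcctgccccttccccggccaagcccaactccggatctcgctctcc
TAP1: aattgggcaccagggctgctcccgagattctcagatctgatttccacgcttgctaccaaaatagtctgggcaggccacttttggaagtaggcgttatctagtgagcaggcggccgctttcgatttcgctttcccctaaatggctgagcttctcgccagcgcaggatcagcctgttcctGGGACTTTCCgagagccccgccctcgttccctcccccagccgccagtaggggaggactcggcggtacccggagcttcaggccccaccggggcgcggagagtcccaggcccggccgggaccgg
The match begins at base -74 in TNFRSF9, -99 in IL32, -186 in ICAM1, -81 in NFKBIA, -21 in NFKB2 and -72 in TAP1, counted from the start of the gene. Of the 12 named shared rises, 9 have an entry in the promoter table and 5 hold a match to either form, while FSTL3, SLC9A2, FAM111A-DT and IFIT3 hold none in these windows. Of the 81 genes higher with each siRNA, 64 have an entry and 11 (17.2%) hold a match. The share was 376 of 13164 genes tested with an entry (2.86%) and 707 of all 27305 genes with an entry (2.59%). By single promoters, 12 of 83 (14.5%) of the genes higher with each siRNA hold a match, against 749 of all 35116 (2.13%). The long form is in 1.61% and the short form in 0.965% of all promoters. Of the 34 genes lower with each siRNA, 20 have an entry and 1 (5.0%), MAP1A, holds a match. These shares describe the sequences and no test was made of them.

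**Figure D2:**
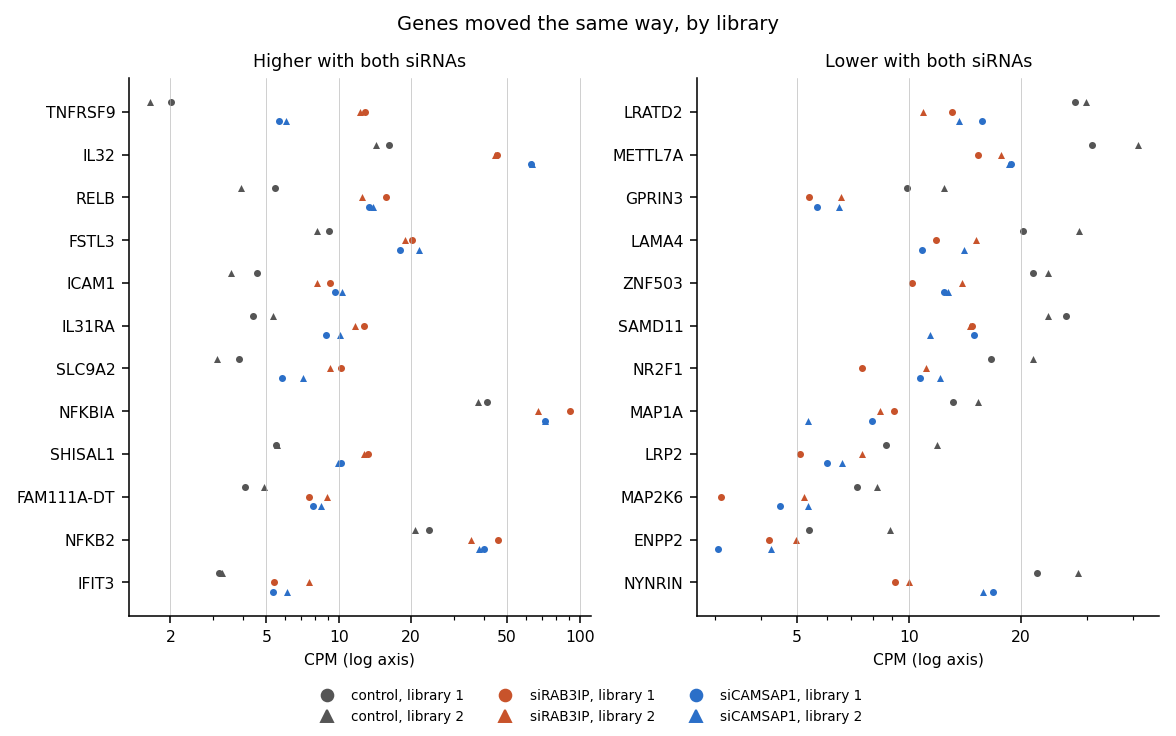
CPM on a log axis in each of the 6 libraries for the 12 largest shared rises (left) and shared falls (right), with circles for library 1 and triangles for library 2 of each group. The siRNA libraries (orange, blue) lie apart from the controls (grey) in all 24 genes because the genes were chosen so.

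As a list, the NF-kB subunits and their feedback inhibitors were called higher in 7 of 14 members tested and lower in none (none lower at an unadjusted p under 0.05, nor by DESeq2), beside 2.37% and 1.88% of all genes. The median average effect of the list was 0.42, beside -0.01 for all genes. Besides RELB, NFKBIA and NFKB2 the called members were TNIP1 (0.43), NFKBIE (0.51), the deubiquitinase CYLD (0.42) and TNFAIP3, which encodes the inhibitor A20 (0.80). In 11 of the 14 all siRNA libraries lay above both controls, and RELB, NFKBIA, NFKB2, NFKBIE and TNIP1 were called with each siRNA. NFKB1 (0.27, adjusted p = 0.0848) and RELA (0.20, adjusted p = 0.149) did not pass the test. TNFAIP3 was the 1 member that differed between the siRNAs, at 6.85 and 6.27 CPM in the controls, 18.7 and 11.5 with siRAB3IP and 9.23 and 8.0 with siCAMSAP1, and its call was lost without either control (adjusted p = 0.254 without control 2, the highest). NFKBIE lost its call without control 2 (adjusted p = 0.09). Leaving out 1 library left 5 to 8 of the 14 called.

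Of 18 chemokine, cytokine and adhesion targets of NF-kB tested, 10 were higher and none lower (none lower at an unadjusted p under 0.05, nor by DESeq2), beside 2.37% and 1.88% of all genes, with a median of 0.89. IER3, an early survival gene, went from 20.1 and 18.2 CPM to 37.8, 40.0, 30.0 and 34.2, and BIRC3, an inhibitor of apoptosis, from 8.43 and 10.6 to 16.2, 16.7, 13.7 and 19.7. With IL32 and ICAM1 these were the 4 members called with each siRNA. The chemokine gene CCL20 was called between the siRNAs, at 1.44 and 0.605 CPM in the controls, 8.09 and 4.63 with siRAB3IP and 2.71 and 2.77 with siCAMSAP1. For CXCL8, CXCL1 and CXCL2 the difference was not called (edgeR adjusted p = 0.1004, 0.0543 and 0.0863). CXCL8, which encodes interleukin 8, read 3.42 and 2.15, 32.6 and 12.8, and 5.52 and 5.71 CPM, with an average of 2.03 that was not called (adjusted p = 0.141). In the controls CXCL1 read 0.615 and 0.436 CPM, CXCL2 0.669 and 0.46, and TNF 0.589 and 0.218. CXCL1 (1.43), CXCL2 (1.2), TNF (1.43), TRAF1 (0.88) and CSF1 (0.50) were called in the average. All of these but CSF1 lost the call without control 2, with adjusted p of 0.123 for CXCL1, 0.271 for CXCL2, 0.385 for TNF and 0.0838 for TRAF1, and 6 of the 18 were left. CXCL2 also lost it without siRAB3IP library 1 or siCAMSAP1 library 2, and TNF without any one of the 4 siRNA libraries.

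Of the 17 receptors of the TNF receptor superfamily tested, 5 were higher and none lower (none at an unadjusted p under 0.05), beside 2.37% and 1.88% of all genes. Apart from TNFRSF9 they were the death receptors TNFRSF10A (0.53), TNFRSF10B (0.30) and FAS (0.55) and the lymphotoxin receptor LTBR (0.31). With siRAB3IP on its own 5 of the 17 were called higher, whereas with siCAMSAP1 on its own only TNFRSF9 was. The death receptors were called between the siRNAs: TNFRSF10A read 38.9 and 33.5 CPM in the controls, 61.4 and 64.5 with siRAB3IP and 41.5 and 45.0 with siCAMSAP1, a difference of 0.54 (adjusted p = 0.00266). FAS overlaps ACTA2, which was lower (-0.80) and lost its call without control 2 (adjusted p = 0.0582). TNFRSF10B lost its call without control 1 (adjusted p = 0.126) and without either siRAB3IP library or siCAMSAP1 library 1, and LTBR without control 2 (adjusted p = 0.355), either siRAB3IP library or siCAMSAP1 library 1, which left 3 to 5 called.

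Most genes of the machinery that loads peptides onto MHC class I were called higher in the average, fewer with each siRNA on its own. Of 16 members tested 11 were called higher in the average, beside 2.37% of all genes, 10 with siRAB3IP, 7 with siCAMSAP1 and 5 with each, and none lower (none lower at an unadjusted p under 0.05, nor by DESeq2), the median was 0.39, and in 14 all siRNA libraries lay above both controls. TAPBP (tapasin), which bridges the class I molecule to the transporter, went from 43.3 and 41.2 CPM to 68.1, 86.1, 71.7 and 66.2. TAP1, one chain of that peptide transporter, went from 27.3 and 27.5 CPM to 40.0, 46.1, 43.0 and 46.9, and the peptide-trimming ERAP1 from 33.1 and 38.1 to 47.5, 55.2, 50.3 and 52.6. These 3, HLA-E and the immunoproteasome subunit PSMB9 were called with each siRNA. TAP2 rose more with siRAB3IP (0.82 against 0.33, adjusted p of the difference 0.00809). HLA-B read 46.5 and 36.3 CPM in the controls, 48.6 and 38.4 with siRAB3IP and 64.9 and 59.6 with siCAMSAP1, and it was not called in the average (0.33, adjusted p = 0.128), while it differed between siRNAs (-0.52, adjusted p = 0.0239). HLA genes are near-identical in sequence and reads may be shared among them.

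Further called members were B2M, the light chain (0.34), HLA-E (0.34), HLA-C (0.30), ERAP2 (0.76), CALR (0.28), PSMB9 (1.40, at 0.401 and 0.484 CPM in the controls) and NLRC5 (0.57), the transactivator of class I genes. Without control 2 only TAPBP, TAP1, TAP2 and ERAP1 were left of the 11, with adjusted p of 0.106 for HLA-E, 0.227 for HLA-C, 0.113 for B2M, 0.307 for ERAP2, 0.256 for CALR and 0.0613 for NLRC5; PSMB9 had 0.077 without control 1. ERAP2 and NLRC5 also lost their calls without control 1, HLA-C and NLRC5 without siRAB3IP library 2, HLA-C without siCAMSAP1 library 1, and CALR without any one of the siRNA libraries. Leaving out any of the other 5 libraries left 8 to 10. The GC content of transcripts of genes higher with each siRNA had a median of 53.8%, beside 47.4% for all genes of at least 5 CPM and 48.7% for genes higher in the average; its part in the result was not tested.

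The sensors of double-stranded RNA and their adaptors had 3 of 16 members higher and none lower (median 0.22), beside 2.37% and 1.88% of all genes. They were OAS3, which makes the activator of RNase L (0.49, at 71.6 and 72.0 CPM against 107, 102, 102 and 92.9), TRAF3 (0.34) and TICAM1 (0.48), and TRAF3 and TICAM1 lost their calls without control 2 (adjusted p = 0.158 and 0.133) or siRAB3IP library 1, TRAF3 also without siCAMSAP1 library 1 and TICAM1 without control 1 or siRAB3IP library 2. Among 33 interferon-stimulated genes 5 were higher and 1 lower, beside the same shares of all genes. IRF1, a transcription factor shared by the interferon and NF-kB responses, went from 15 and 15.2 CPM to 21.7, 24.0, 24.2 and 23.9, whereas IFIT1 fell from 6.98 and 8.25 to 3.83, 3.81, 5.21 and 4.98 and lost its call without control 2 (adjusted p = 0.0665). GBP1 and APOL6, an apolipoprotein L gene, were called from low levels: APOL6 read 0.268 and 0.242 CPM in the controls, 1.56 and 3.17 with siRAB3IP and 0.876 and 1.68 with siCAMSAP1, and APOL1 read 0.107 and 0, 0.688 and 1.2, and 0.876 and 0.838. Both APOL genes were called with each siRNA, and the control levels of APOL1 are those of 4 counts or fewer, so no fold is given for it.

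Beside these immune genes, 1 of 7 blood cell markers tested, the leukocyte actin-bundling gene LCP1, was called higher, at 1.07 and 1.4 CPM in the controls, 4.15 and 4.5 with siRAB3IP and 2.37 and 2.95 with siCAMSAP1. The summed level of the blood markers was 11 and 9.58 CPM in the controls, 15.1 and 12.7 with siRAB3IP and 12.1 and 12.7 with siCAMSAP1. The defining markers PTPRC and CD3E were at or under 3 counts in every library. None of the 5 endothelial, fibroblast, liver and muscle markers tested was called by edgeR or DESeq2 in the average, and 1 was lower at an unadjusted p under 0.05.

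**Figure D3:**
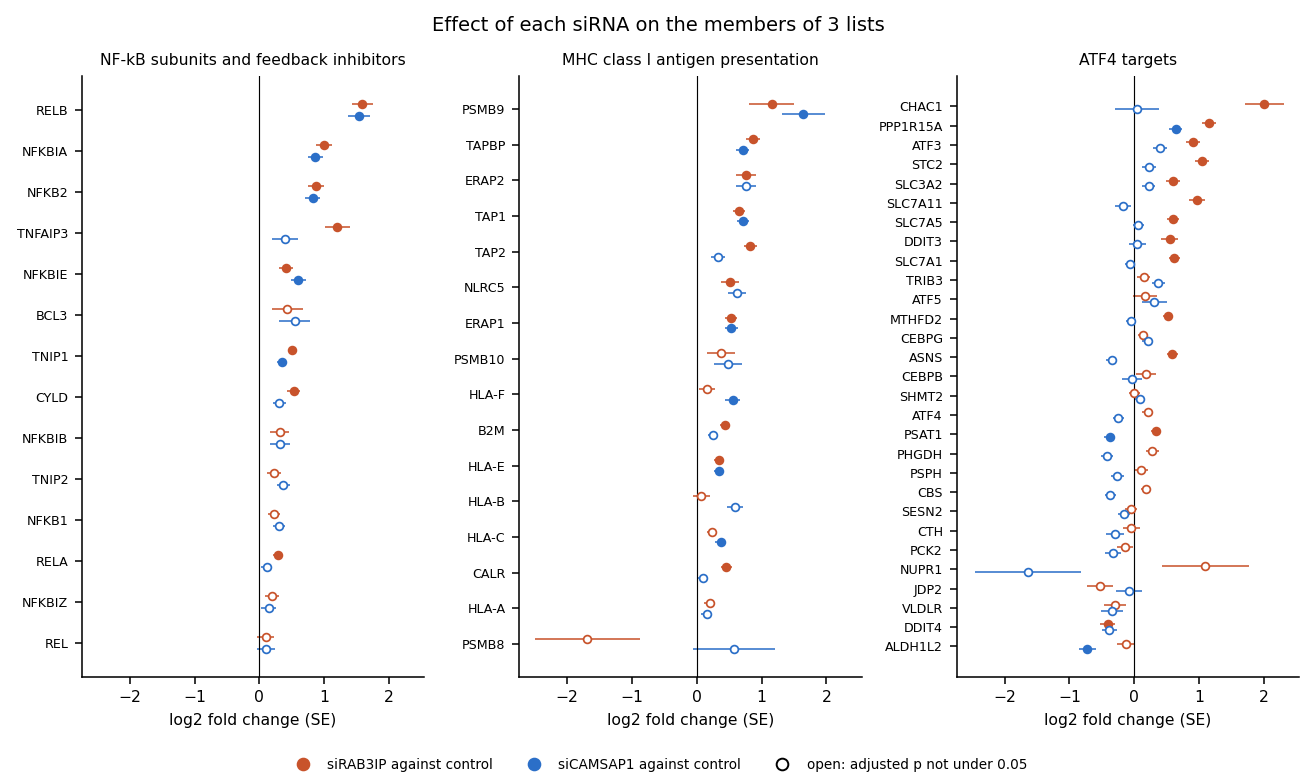
Log2 fold change (points) with its standard error (bars) for each siRNA against control, for the members tested of 3 lists; filled points have an adjusted p under 0.05. NF-kB members lie to the right of 0 with both siRNAs, whereas ATF4 targets separate by siRNA.

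ATF4 is the main transcription factor downstream of the integrated stress response. Of its 29 targets tested, 6 were higher in the average and 1 was lower, beside 2.37% and 1.88% of all genes, and 17 differed between the siRNAs. Without siRAB3IP library 1 the higher count was 3, and without control 2 it was 4. PPP1R15A (GADD34), which ends that response by dephosphorylating eIF2-alpha, rose with both, from 76.4 and 62.8 CPM to 168, 141, 112 and 105. STC2 was called with siRAB3IP (1.05), with a value of 0.23 for siCAMSAP1 (adjusted p = 0.411) and a difference of 0.82 (adjusted p = 0.000324). The values of ATF3 were 0.91 and 0.40 (adjusted p = 0.121 with siCAMSAP1), with a difference of 0.51, and in both genes all siRNA libraries lay above the controls. In the endoplasmic reticulum (ER) stress list, 7 of 21 were higher and none lower, but none was called with siCAMSAP1 in that direction. XBP1, a transcription factor of that response, read 111 and 109 CPM in the controls, 207 and 193 with siRAB3IP and 115 and 128 with siCAMSAP1, a difference of 0.72 (adjusted p = 0.000229). EDEM1 (0.39 in the difference) and HYOU1 (0.38) were called between the siRNAs too. Leaving out 1 library left 3 to 7 of the 7 called, with 3 without control 2 or siRAB3IP library 1.

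Of 22 immediate early genes 6 were higher, beside 2.37% of all genes, and none lower (none lower at an unadjusted p under 0.05, nor by DESeq2). Without control 2, 3 were left. FOSL2, a component of AP-1, read 23.2 and 23.3 CPM in the controls, 51.3 and 47.3 with siRAB3IP and 31.4 and 28.9 with siCAMSAP1, so that all siRNA libraries were above the controls and the siRNAs differed by 0.71 (adjusted p = 0.000337). FOSB read 1.07 and 0.944 CPM against 3.2, 2.16, 2.37 and 2.03, and it lost its call without control 2 (adjusted p = 0.0593). The small heat shock gene HSPB8 rose equally with each siRNA, from 37.7 and 33.8 CPM to 58.6, 64.1, 62.9 and 59.9 (0.78 and 0.78).

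The largest shared falls joined genes of several functions. LRATD2 went from 27.9 and 29.9 CPM to 13, 10.9, 15.7 and 13.6 (average log2 fold change -1.12, SE 0.10, adjusted p = 8.45e-05). METTL7A, a lipid droplet methyltransferase, went from 31.0 and 41.3 CPM to 15.3, 17.7, 18.8 and 18.5 (-1.05, SE 0.11), and NYNRIN from 22.1 and 28.4 to 9.15, 10, 16.9 and 15.8 (-1.01, SE 0.11). The lowest control was above the highest siRNA library in all 3, as the rule that chose the falls required. NYNRIN fell more with siRAB3IP (difference -0.77, edgeR adjusted p = 0.00291). LAMA4, a laminin chain of basement membranes, went from 20.2 and 28.6 CPM to 11.8, 15.2, 10.8 and 14.0 (-0.92, SE 0.15). MAP1A, a microtubule-associated protein, went from 13.1 and 15.3 CPM to 9.12, 8.33, 7.96 and 5.36 (-0.90, SE 0.14). The transcription factor genes ZNF503 (-0.88) and NR2F1 (-0.89), GPRIN3 (-0.89) and SAMD11 (-0.85) were called as well. ZNF503, NR2F1 and SAMD11 overlap other genes (ZNF503-AS2, NR2F1-AS1 and NOC2L). LRP2, the endocytic receptor megalin (-0.71), the p38 kinase kinase MAP2K6 (-0.77) and ENPP2, which makes lysophosphatidic acid (-0.80), were not called without control 2, with adjusted p of 0.288, 0.143 and 0.47, nor were LRP2 and ENPP2 without siRAB3IP library 1 or ENPP2 without siCAMSAP1 library 1. On its own siCAMSAP1 did not reach the threshold in NR2F1, LRP2, MAP2K6 and ENPP2, nor in IFIT3 among the rises, and ENPP2 did not reach it with siRAB3IP either (adjusted p = 0.0911).

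In the list of bone morphogenetic protein (BMP) ligands, antagonists and ID genes, of 19 members 1 was higher and 6 were lower, with a median of -0.23. Of all genes 2.37% were higher and 1.88% lower. On their own, siRAB3IP lowered 4 members and siCAMSAP1 3, and 1 was called lower with each. BMP2, a ligand, read 26.9 and 23.8 CPM in the controls, 84.0 and 70.9 with siRAB3IP and 24.8 and 22.8 with siCAMSAP1, so that its call in the average (0.76) came from siRAB3IP, with a difference of 1.70 (adjusted p = 2.58e-06). The ID genes, direct targets of the pathway that block differentiation factors, were lower in the average: ID3 read 94.0 and 81.2 CPM in the controls against 79.2, 70.0, 60.8 and 56.4, ID2 48.7 and 50.8 against 43.2, 37.0, 36.5 and 33.3, and ID1 38.5 and 33.9 against 35.1, 24.2, 23.0 and 19.3. ID1 was not called with siRAB3IP on its own (-0.29, edgeR adjusted p = 0.2785), where library 1 lay above control 2. Its average call (adjusted p = 0.0493) was lost with RLE scaling. The feedback inhibitor SMAD6 (-0.49), the ligand BMP4 (-0.67) and the receptor BMPR2 (-0.34) were the other lower members. BMP4 and BMPR2 were not called with siCAMSAP1 on its own (edgeR adjusted p = 0.2766 and 0.3625). Without control 2 only ID3 remained of the 6, with adjusted p of 0.0611 for ID2, 0.0878 for SMAD6, 0.144 for BMP4 and 0.23 for BMPR2; without control 1, ID1 had 0.293 and ID3 0.0732. BMPR2 also lost its call without siRAB3IP library 1 and ID1 without siCAMSAP1 library 2.

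Of 18 Wnt targets and inhibitors 4 were lower in the average and none higher, beside 1.88% and 2.37% of all genes. With siRAB3IP on its own 6 were lower and 1 higher, and with siCAMSAP1 on its own none was called. CCND1, which encodes cyclin D1, read 111 and 122 CPM in the controls, 50.7 and 51.9 with siRAB3IP and 114 and 116 with siCAMSAP1, a fall with siRAB3IP alone in the values and a difference of -1.16 (adjusted p = 4.24e-06). LGR5, a stem cell receptor for R-spondin, read 4.12 and 5.44 CPM against 1.69, 1.54, 2.65 and 2.82, and CXXC4, a Wnt inhibitor, 7.25 and 11.3 against 2.25, 2.88, 5.1 and 8.41. Of 22 p53 targets 3 were higher and 6 lower. SESN1 fell with each siRNA, from 46.1 and 48.8 CPM to 26.8, 28.1, 35.4 and 35.4 (-0.61), and MDM2, the ligase that degrades p53, read 418 and 443 CPM against 334, 385, 306 and 310 (-0.37). Without control 2, the calls of CXXC4 (adjusted p = 0.0895), MDM2 (0.0664), SPATA18 (0.0786), DDB2 (0.0586) and LEF1 (0.184) were lost, which left 1 of the 6 lower p53 targets and 2 of the 4 lower Wnt genes. LEF1 also lost it without siRAB3IP library 2 or siCAMSAP1 library 2. CDKN1A, the cell cycle inhibitor p21, was not called in the average (-0.16, adjusted p = 0.382) and differed between siRNAs, at 78.8 and 67.3 CPM in the controls, 90.2 and 84.1 with siRAB3IP and 54.4 and 43.3 with siCAMSAP1.

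**Figure D4:**
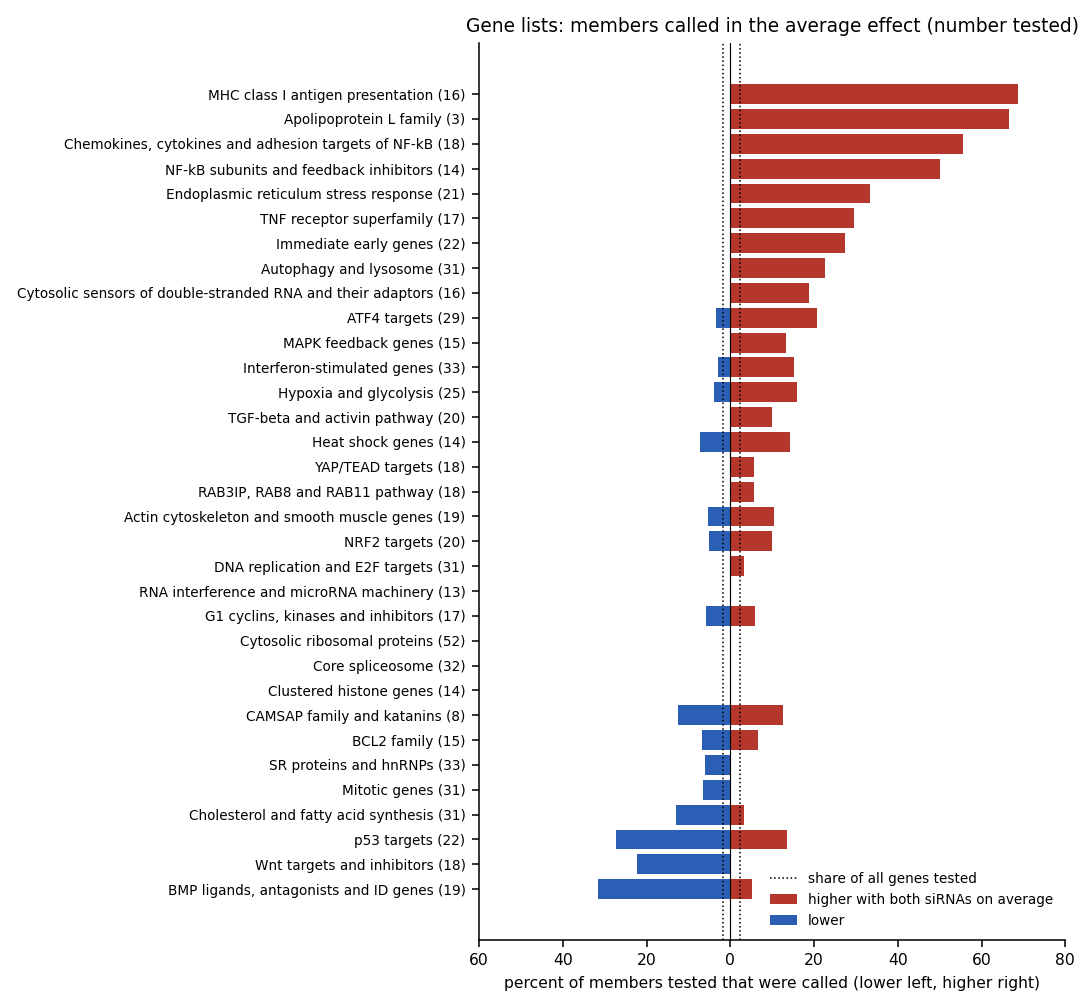
Percent of the members tested of each list, cell type markers left out, that were called higher (right) or lower (left) in the average effect, with the number tested in brackets and dotted lines at the shares of all genes tested (2.37% and 1.88%). The MHC class I list and the 3 tested apolipoprotein L genes reach farthest to the right, and BMP and p53 lists farthest to the left.

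The lists for the machinery that an siRNA uses and for RNA processing are set beside the 4.25% of all genes called in the average, 2.37% higher and 1.88% lower. None of 13 genes of RNA interference and microRNA machinery, 32 core spliceosome genes, 52 cytosolic ribosomal protein genes and 14 clustered histone genes was called in the average by edgeR or by DESeq2. At an unadjusted p under 0.05 in edgeR there were 3 of the RNA interference genes (2 higher), 2 of the spliceosome genes (1 higher), 2 of the ribosomal protein genes (both higher) and 3 of the histone genes (all lower). Among all 22331 genes tested, 4200 had such an unadjusted p. The histone list had 1 lower call without control 2 or siRAB3IP library 2, 2 without siRAB3IP library 1 and 2 with no filter on low counts. Limma-voom and a filter at a mean of 5 CPM each called 1 histone gene lower. With the library number as a replicate block, 9 ribosomal protein genes were called higher and 5 histone genes lower. That block also called RNA interference genes (2 higher, 1 lower) and spliceosome genes (1 higher, 2 lower). Of 33 SR protein and hnRNP genes 2 were lower, HNRNPF and SRSF12, and none higher. HNRNPF read 494 and 460 CPM in the controls, 288 and 259 with siRAB3IP and 527 and 489 with siCAMSAP1, a difference of -0.89 (adjusted p = 6.47e-05), and its call in the average was lost without siRAB3IP library 2 (adjusted p = 0.0598) and without control 1. SRSF12 was not called without control 1 (adjusted p = 0.206) and without control 2, either siRAB3IP library or siCAMSAP1 library 1. Of 31 mitotic genes 2 were lower, HMMR (-0.45) and KIF20A (-0.32), the latter not without control 2 (adjusted p = 0.0864) or siRAB3IP library 1.

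Effects in opposite directions were found in 693 genes (3.1%), defined as a call between the siRNAs with both libraries of one siRNA above and both of the other below both controls. In 383 (1.72%) siRAB3IP was the higher and in 310 (1.39%) siCAMSAP1. The set was chosen on the difference between the siRNAs, so that difference is a description here. Each siRNA's own effect was called less widely, in 282 genes (40.7%) for siRAB3IP and in 34 (4.91%) for siCAMSAP1, and 14 genes (0.0627% of those tested) were called with each siRNA in opposite directions. Of the 693, 10 were called in the average. Where a control is left out, the definition is looser, as the siRNA libraries need to lie beyond the other control only. Without controls 1 and 2 the count was 1196 and 1201, and without siRAB3IP library 2 it was 324; the count of genes called between the siRNAs was 1132 and 719 without siRAB3IP libraries 1 and 2 and 976 without siCAMSAP1 library 1.

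OLFM1, a secreted neuronal glycoprotein (chr9:137967268-138013025 in the hg19 coordinates of the count file), showed the widest split, at 5.54 and 3.8 CPM in the controls, 10.2 and 14.2 with siRAB3IP and 2.35 and 1.63 with siCAMSAP1. Its own effects were 1.39 (adjusted p = 0.00124) and -1.23 (adjusted p = 0.0308), which averaged to 0.08. NUP210, a membrane protein of the nuclear pore, read 138 and 148, 187 and 206, and 101 and 96.3 CPM, and its own effects of 0.46 and -0.54 were called as well. B4GALT1, a galactosyltransferase of the Golgi, read 23.8 and 26.1, 32.6 and 34.6, and 19.1 and 15.5 CPM (0.43 and -0.53). In each of these genes the controls lay between the siRNAs with no overlap, by the definition of the set. The matrix protein gene THSD4 (0.83 and -0.63), the protease inhibitor SERPINE2 (0.52 and -0.60), PARM1 (0.90 and -0.52), the protocadherin PCDHB8 (0.47 and -0.60) and NLRP11 (0.63 and -0.41) were the others named on this side. In none of these 5 did siCAMSAP1's own effect pass the test. PCDHB8 was not called with siRAB3IP on its own either (edgeR adjusted p = 0.0607).

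The remaining genes called with each siRNA in opposite directions, chosen after their values were seen, were LCLAT1 (0.33 and -0.78), ZNF678 (0.37 and -0.61), NECTIN4 (0.64 and -0.94), SLC25A44 (0.32 and -0.48), PPP1CB (0.27 and -0.41), H2AZ2 (0.25 and -0.34), EIF4EBP2 (0.38 and -0.40), SLC39A9 (0.40 and -0.39) and PSAT1 (0.34 and -0.38), all higher with siRAB3IP. LCLAT1, an acyltransferase of cardiolipin remodelling, read 52.9 and 50.0 CPM in the controls, 68.0 and 61.6 with siRAB3IP and 30.2 and 29.5 with siCAMSAP1. EIF4EBP2, a repressor of cap-dependent translation, read 161 and 169, 203 and 227, and 127 and 123 CPM. In the other direction, 2 genes were called with each siRNA, the LIM protein gene WTIP (-0.46 and 0.51) and LGALS1, which encodes galectin-1 (-0.37 and 0.62). LGALS1 read 14.7 and 14.1 CPM in the controls, 11.2 and 11.1 with siRAB3IP and 23.4 and 20.7 with siCAMSAP1.

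On the side of siCAMSAP1, WTIP read 12.5 and 12.4 CPM in the controls, 9.6 and 8.57 with siRAB3IP and 17.9 and 17.7 with siCAMSAP1. The kinesin light chain KLC3 read 14.3 and 11.1, 10.1 and 7.22, and 18.9 and 18.1 CPM, and the cold shock domain gene CSDC2 8.43 and 7.48, 5.55 and 4.07, and 12.6 and 10.5. HMOX1, which degrades haem, read 16.2 and 14.0, 11.8 and 11.2, and 23.6 and 18.3 CPM. The groups are apart by the definition of the set. Of these 4, WTIP alone was called with siCAMSAP1, and HMOX1 was called with neither siRNA on its own (adjusted p = 0.0823 and 0.13). C12orf57 (-0.45 and 0.47), PIK3CD (-0.42 and 0.47), the receptor kinase AXL (-0.41 and 0.40) and P-cadherin, CDH3 (-0.58 and 0.37), completed the 8. PIK3CD and AXL were called with neither siRNA on its own, and C12orf57 and CDH3 with siRAB3IP but not with siCAMSAP1. KLC3, CSDC2 and PIK3CD overlap other genes (ERCC2, PMM1 and CLSTN1). AXL was not called between the siRNAs without siRAB3IP library 2 (-0.61, adjusted p = 0.075).

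**Figure D5:**
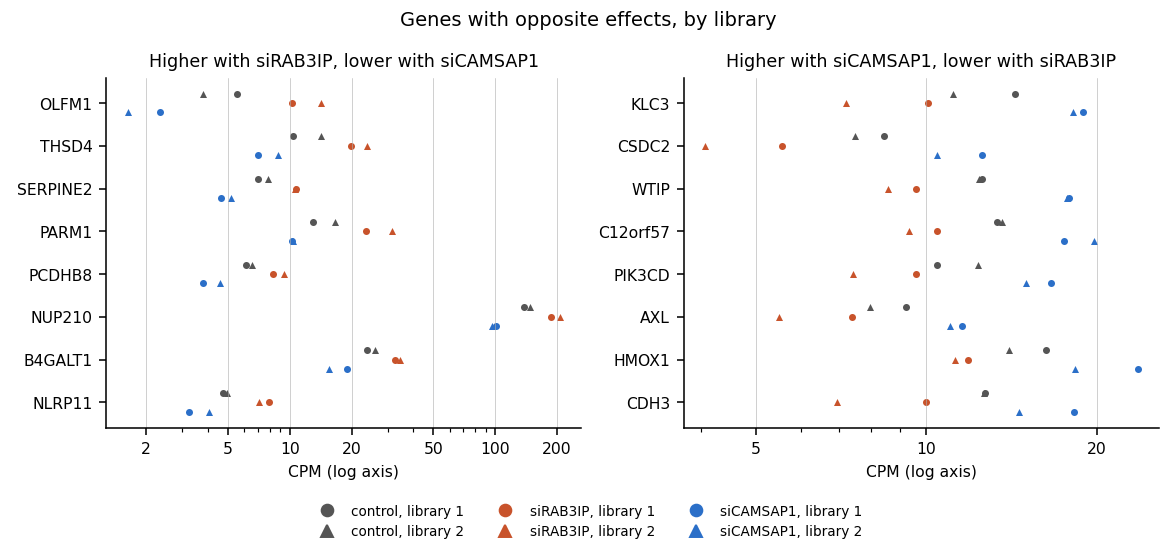
CPM on a log axis in each of the 6 libraries for the 8 genes named on each side of the set with opposite effects, circles for library 1 and triangles for library 2 of a group. The controls (grey) lie between siRAB3IP (orange) and siCAMSAP1 (blue) by the definition of the set.

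Of the ATF4 targets, 6 of 29 were in the opposite set, all with siRAB3IP above and siCAMSAP1 below the controls, beside 1.72% of all genes, and none the other way. PSAT1 alone of the 6 was called with each siRNA. ASNS and SLC7A1 were called with siRAB3IP and not with siCAMSAP1, and PHGDH, CBS and ATF4 with neither. They were ATF4 itself, ASNS, PSAT1, PHGDH, CBS and the arginine transporter SLC7A1. ASNS, asparagine synthetase, read 64.8 and 60.0 CPM in the controls, 90.9 and 96.8 with siRAB3IP and 47.1 and 50.9 with siCAMSAP1. PSAT1, of serine synthesis, read 79.5 and 76.2, 102 and 94.8, and 57.3 and 62.7 CPM, and PHGDH, the first enzyme of that pathway, 109 and 116, 125 and 149, and 80.2 and 87.7. ATF4 itself read 316 and 300 CPM, 383 and 329, and 265 and 255, and it was not called between the siRNAs without siRAB3IP library 1 (0.34, adjusted p = 0.0764). Among 18 YAP/TEAD targets 3 were in the opposite set, all higher with siCAMSAP1, beside 1.39% of all genes. One was AJUBA, at 49.2 and 47.5, 40.3 and 42.7, and 65.7 and 64.7 CPM.

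GC content differed between the sides of the opposite set. Among genes of at least 5 CPM, the 289 higher with siRAB3IP had a median transcript GC of 44.0% and the 276 higher with siCAMSAP1 one of 52.8%, beside 47.4% for all. Of the libraries, siCAMSAP1 library 1 had the highest level of GC-rich against GC-poor genes, 0.173 on the log2 scale, beside 0.063 and -0.104 in the controls, -0.025 and -0.052 with siRAB3IP and -0.047 in siCAMSAP1 library 2. With the trend with GC and length removed, 776 genes had opposite effects and 229 were called with each siRNA one way. The part of GC content in the opposite set was otherwise not tested.

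Genes moved by one siRNA much more than by the other carried part of the average. DNAH17, an axonemal dynein that overlaps PGS1, read 6.5 and 6.17 CPM in the controls, 30.3 and 34.1 with siRAB3IP and 9.98 and 11 with siCAMSAP1, a difference of 1.61 (adjusted p = 4.6e-06). The non-coding LINC02154 read 1.93 and 2.83, 10.3 and 9.67, and 2.42 and 2.9 CPM (difference 1.90). CD44, the hyaluronan receptor, read 78.5 and 74.2, 181 and 156, and 104 and 104 CPM, and rose with each siRNA (1.14 and 0.45). SHISA2 fell more with siCAMSAP1, from 78.9 and 88.0 CPM to 46.6 and 65.3 with siRAB3IP and 27.3 and 33.8 with siCAMSAP1. BMF, a BH3-only protein that promotes apoptosis, read 19.3 and 25.7, 7.96 and 10.8, and 14.5 and 17.0 CPM, and STON1 8.77 and 13.5, 3.41 and 4.15, and 7.45 and 9.27. The average call of STON1 was lost without control 2 (adjusted p = 0.0696) and that of SHISA2 without either control (adjusted p = 0.122 without control 2). The keratins KRT18 (-0.49) and KRT8 (-0.42) were lower in the average, and KRT8 lost its call without control 1 (adjusted p = 0.0633) and without siRAB3IP library 1.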

How the data were processed

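The authors' deposited count table gives raw fragment counts per gene. The counter was featureCounts 1.6.0, per the file headers, run without strand; STAR, DESeq2 and hg19 are named in the submitters' processing notes. The 2 deposited tables of the authors' own comparisons give a normalized signal (counts divided by 1 size factor per library), log2 fold changes and adjusted p-values. All 8 signal columns matched 1 of the 6 count columns within 1e-09 in the log2 ratio, which gave each library its group. Of 63677 genes, 52181 had a symbol in the table of gene names and 22331 passed edgeR's filter on low counts. Counts were scaled by TMM and fitted with edgeR 4.0.16 (R 4.3.3) with robust hyperparameters in a model of 3 groups with 3 residual degrees of freedom, contrasted with a weight of 0.5 per siRNA. CPM are TMM-scaled unless stated. Alternatives used DESeq2 1.42.0 and limma 3.58.1, other scalings, filters and designs. The fit was tested on simulated data. Shared genes named were called in the average at a mean of at least 5 CPM with all siRNA libraries on one side of both controls, the 12 rises and 12 falls with the largest smaller own effect. Opposite genes, 8 per direction, were ranked likewise. For one-siRNA genes, 5 per direction had the largest average. Up to 4 called members were named per list of 36, by adjusted p. Other genes, including further list members, were chosen after their values were seen. A few genes are not reported here. The members and lists were chosen with earlier results of these data known.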

Additional observations from a re-analysis of the deposited data

Results flagged for a closer look

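The effects of the 2 siRNAs differed from each other, by edgeR's quasi-likelihood test of that difference with Benjamini-Hochberg adjusted p under 0.05, in 84 of the named genes. Genes named for opposite effects were chosen on this difference, so there it is a description. The values are the siRAB3IP minus siCAMSAP1 log2 difference. In 57 genes siRAB3IP was the higher. The values were TNFRSF9 1.10, SLC9A2 0.59, OLFM1 2.62, THSD4 1.46, SERPINE2 1.12, PARM1 1.42, PCDHB8 1.07, NUP210 1.0, B4GALT1 0.96, NLRP11 1.05, DNAH17 1.61, LINC02154 1.90, SHISA2 0.87 and CCL20 1.22. They continued with TNFRSF10A 0.54, FAS 0.58, TNFRSF10B 0.46, TAP2 0.49, PPP1R15A 0.51, STC2 0.82, ATF3 0.51, SLC3A2 0.38, XBP1 0.72, EDEM1 0.39, HYOU1 0.38, FOSL2 0.71, BMP2 1.70 and ID3 0.35. Then followed DDB2 0.43, E2F1 0.40, TXNRD1 0.27, FADS1 0.34, ELOVL6 0.31, ADM 0.45, HK2 0.74, FLCN 0.30, LCP1 0.70, TNFAIP3 0.81, CALR 0.36, GBP3 0.84 and CD44 0.70. Others were OSTM1 0.51, SLC7A5 0.53, ASNS 0.94, PHGDH 0.70, PSAT1 0.72, CBS 0.55, ATF4 0.45, CDKN1A 0.84, SLC25A44 0.80, NECTIN4 1.58, ZNF678 0.97, PPP1CB 0.67, LCLAT1 1.12 and H2AZ2 0.59. Last came EIF4EBP2 0.78 and SLC39A9 0.79. In 27 genes siCAMSAP1 was the higher. Their values were IL32 -0.49, NYNRIN -0.77, KLC3 -1.10, CSDC2 -1.26, WTIP -0.97, C12orf57 -0.92, PIK3CD -0.89, AXL -0.81, HMOX1 -0.86, CDH3 -0.95, CXXC4 -1.40, STON1 -1.14, BMF -0.75 and TAGLN -1.98. Further values were CCND1 -1.16, LGR5 -0.76, SESN1 -0.37, HMMR -0.70, KIF20A -0.26, HNRNPF -0.89, SRSF12 -0.51, HSPB1 -0.66, TM7SF2 -0.48, KRT18 -0.46, HLA-B -0.52, AJUBA -0.65 and LGALS1 -0.99.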

How the results depend on the processing

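Grouping the libraries by the titles of the sample records called 0 genes by edgeR for the average, for siRAB3IP, for siCAMSAP1, between the siRNAs, one way in both and in opposite ways, and with DESeq2 also 0 apart from 1 gene for siCAMSAP1 (chosen after seeing the data). For the average, 359 genes with edgeR and 210 with DESeq2 had an unadjusted p under 0.05. Of the named genes, 102 changed sign under the record titles, in the log2 fold change of the average or, for genes named for a difference, between the siRNAs. These were TNFRSF9 -0.36, SLC9A2 -0.22, NFKBIA -0.099, NFKB2 -0.053, METTL7A 0.011, GPRIN3 0.0053, LAMA4 0.084, NR2F1 0.19, LRP2 0.21, MAP2K6 0.16, ENPP2 0.13, NYNRIN 0.13, OLFM1 -1.36, THSD4 -0.62, SERPINE2 -0.34, PARM1 -0.64, PCDHB8 -0.42 and NUP210 -0.28. Next came B4GALT1 -0.15, NLRP11 -0.44, KLC3 0.24, CSDC2 0.46, WTIP 0.20, C12orf57 0.096, PIK3CD 0.36, AXL 0.24, HMOX1 0.35, CDH3 0.52, DNAH17 -0.45, LINC02154 -0.59, CXXC4 0.52, STON1 0.46, BMF 0.29, TNIP1 -0.015, CCL20 -0.95 and TNFRSF10A -0.15. Next came TNFRSF10B -0.061, TRAF3 -0.078, IFIT1 0.0088, TAP2 -0.22, PPP1R15A -0.24, STC2 -0.20, ATF3 -0.30, SLC3A2 -0.21, XBP1 -0.25, EDEM1 -0.023, HYOU1 -0.0031, FOSL2 -0.21, FOSB -0.20, DUSP5 -0.091, FJX1 -0.020, BMP2 -0.72, CCND1 0.30 and LGR5 0.035. Next came SESN1 0.0036, BID -0.15, E2F1 -0.13, HMMR 0.029, KIF20A 0.052, HNRNPF 0.14, HSPB1 0.27, PIR 0.056, TXNRD1 -0.092, TM7SF2 0.030, ADM -0.15, HK2 -0.27, BNIP3 -0.015, SQSTM1 -0.13, CAMSAP2 -0.012, KRT18 0.023 and KRT8 0.01. Next came TNFAIP3 -0.56, CYLD -0.12, CXCL1 -0.41, CXCL2 -0.46, TNF -0.63, TRAF1 -0.13, B2M -0.033, CALR -0.078, GBP3 -0.064, CD44 -0.27, LTBR -0.0097, BMP4 0.23, BMPR2 0.092, DDIT4 0.011, SLC7A5 -0.23, ASNS -0.46, PHGDH -0.27 and PSAT1 -0.24. Next came CBS -0.080, ATF4 -0.047, CDKN1A -0.065, AJUBA 0.075, SLC25A44 -0.16, NECTIN4 -0.44, ZNF678 -0.28, PPP1CB -0.19, LCLAT1 -0.18, H2AZ2 -0.10, EIF4EBP2 -0.24, SLC39A9 -0.20 and LGALS1 0.24. The same-numbered libraries of different groups are not said to share anything, and the differences between libraries 2 and 1 correlated at 0.45, 0.532 and 0.445 over 11784 genes. With that number as a replicate block, 3546 genes were called in the average, 5590 for siRAB3IP, 1643 for siCAMSAP1, 4829 between the siRNAs and 858 one way in both; 1010 were opposite. Among lists with no call in the average, the block called 9 ribosomal protein genes higher, 5 histone genes lower, 3 RNA interference genes (2 higher) and 3 spliceosome genes (1 higher). Without the filter on low counts, 1636, 676 (siCAMSAP1) and 306 (one way) were called. DESeq2 called 360 for siCAMSAP1. Against a fold of 1.2, 116 were left in the average, 702 for siRAB3IP, 39 for siCAMSAP1, 520 between the siRNAs, 23 one way and 259 opposite. With length and GC trends removed, chosen after seeing the data, 1586, 446 (siCAMSAP1) and 229 (one way) were called. As 1 group of 4, the average called 23. Leaving out 1 library gave 374 to 1054 for the average, 1160 to 2675 for siRAB3IP, 86 to 425 for siCAMSAP1, 719 to 2652 between the siRNAs, 53 to 232 one way and 324 to 1201 opposite. The cause of these changes was not tested, except that fewer or more genes were tested or fewer libraries used. Of 128 named genes called in the average, RLE scaling kept 127, upper-quartile scaling and limma-voom 125, and a fit with no robust hyperparameters (chosen after seeing the data) 126; without control 2, 70 kept their call. Depth was like in all libraries, at 37379217 to 39637733 fragments, and limits genes near 3 counts.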

Other observations

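Lysosomal and autophagy genes were higher in 7 of 31 members and lower in none (none lower at an unadjusted p under 0.05, nor by DESeq2), beside 2.37% and 1.88% of all genes. They included the autophagy receptor SQSTM1 (average log2 fold change 0.51, overlapping MGAT4B), the sphingolipid activator precursor PSAP (0.43) and FLCN, the folliculin tumour suppressor (0.45). Without control 2, 3 of the 7 were called, and SQSTM1 was not (adjusted p = 0.116). Of 31 genes of cholesterol and fatty acid synthesis 1 was higher and 4 were lower, TM7SF2 (-0.49), FADS1 (-0.31), FADS2 (-0.28) and ELOVL6 (-0.30). Without control 2, 1 of the lower and none of the higher was left. Of 25 hypoxia and glycolysis genes 4 were higher, among them the vasodilator peptide gene ADM (0.72) and hexokinase HK2 (0.48), and EGLN3 was lower (-0.44).

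OPTN, an adaptor that binds RAB8 and damaged mitochondria, was the 1 gene called of 18 in the pathway around RAB3IP (0.55). Of 8 CAMSAP and katanin genes CAMSAP2 was higher (0.29) and KATNAL2 lower (-0.63), and each lost its call when single libraries were left out (adjusted p up to 0.138 and 0.172). Of 20 TGF-beta and activin genes FSTL3 and TGFBI were higher. Of 14 heat shock genes HSPB8 and HSPA8 were higher and HSPB1 lower, and of 20 NRF2 targets FTL and TXNRD1 were higher and PIR lower. Over all genes 2.37% were higher and 1.88% lower, and in each of these 3 lists the higher count was 1 without some of the single libraries, control 2 for the first and second and control 1 for the third among them.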
